A study of Homo sapiens with 6 samples.

Results

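Ubiquitin ligases of the TRIM, RNF, F-box, KLHL, CUL, MARCH, ASB and HECTD families were followed in HCT116 cells, a line from a human colorectal carcinoma. In the study 3 cultures labelled Rab27B KO, in which RAB27B was targeted by CRISPR/Cas9, stood against 3 wild-type (WT) cultures. All 6 were untreated and grown for 48 hours, and the sources used here do not give whether the edited cells are 1 clone. The data are 2 tables of the authors' own comparison, which give each gene its log2 fold change (Rab27B KO over WT) and a q-value but no value per sample. Members were all listed genes whose symbol starts with the name of 1 of the 8 families followed by a digit, without TRIM28 and RNF43. This gave 122 of the 7681 listed genes, 49 listed as higher and 73 as lower in the samples labelled Rab27B KO.

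The target gene went against its label. By the authors' deposited table, RAB27B RNA was 36.7-fold higher in samples labelled Rab27B KO, so every direction below is that of the labelled groups. A gene is listed only where its q-value was below 0.05, and a gene in neither table either did not pass or was not measured. Without values per sample, no spread between replicates, no standard error and no depth can be given. Fewer cells of a type and less RNA per cell cannot be told apart in such bulk samples. Of 10 markers of colon epithelium 6 were listed, with KRT8, KRT18 and KRT20 higher and EPCAM, CDH1 and CDX2 lower. Of 11 markers of leukocytes, fibroblasts and endothelium 3 were listed, with CD68 and COL3A1 higher and COL1A1 lower. Tables of changed genes cannot show whether the other markers were present, and the part of these changes in the results below was not tested.

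Ubiquitin ligases choose the proteins that a cell tags with ubiquitin, most often for destruction by the proteasome or for a change of signalling or traffic. RING ligases, such as the RNF and MARCH proteins and most TRIM proteins, hold the substrate and the ubiquitin-loaded conjugating enzyme together. HECT ligases, such as the HECTD proteins, first take the ubiquitin onto themselves. Cullins are scaffolds of modular ligases: CUL1 carries F-box proteins as substrate receptors, CUL3 carries BTB-Kelch proteins such as the KLHL family, and CUL5 carries SOCS-box proteins such as the ASB family. In intestinal epithelium and in tumours derived from it, such ligases set the turnover of Wnt, p53 and inflammatory signalling proteins.

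The families differed in how their listed genes were split. KLHL genes were mostly lower, with 4 higher and 13 lower, and TRIM genes too, with 7 higher and 18 lower. RNF genes divided about evenly, with 21 higher and 19 lower, as did F-box genes, with 13 higher and 12 lower. The 15 listed genes of the 4 small families held 4 higher and 11 lower. Among all listed genes 50.7% were higher and 49.3% lower, against 40.2% higher and 59.8% lower among the members. By family the share that was lower was 76.5% for KLHL, 72.0% for TRIM, 47.5% for RNF and 48.0% for F-box. The difference between the families was described and not tested.

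Membership in the tables was about as common for these ligases as for other genes. Of 303 members annotated as protein-coding in RefSeq 122 were listed, a share of 40.3%, beside a background of 37.9% for all coding genes (7604 of 20056). By family the listed share was 46.5% of 86 RNF genes, 45.9% of 37 KLHL genes, 39.7% of 63 F-box genes and 32.9% of 76 TRIM genes. It was 37.5% of 8 cullins, 36.4% of 11 MARCH genes, 27.8% of 18 ASB genes and 75.0% of 4 HECTD genes. Among the 51 unlisted TRIM genes were many copies of a few recent clusters, such as TRIM49, TRIM64 and their relatives.

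**Figure D1:**
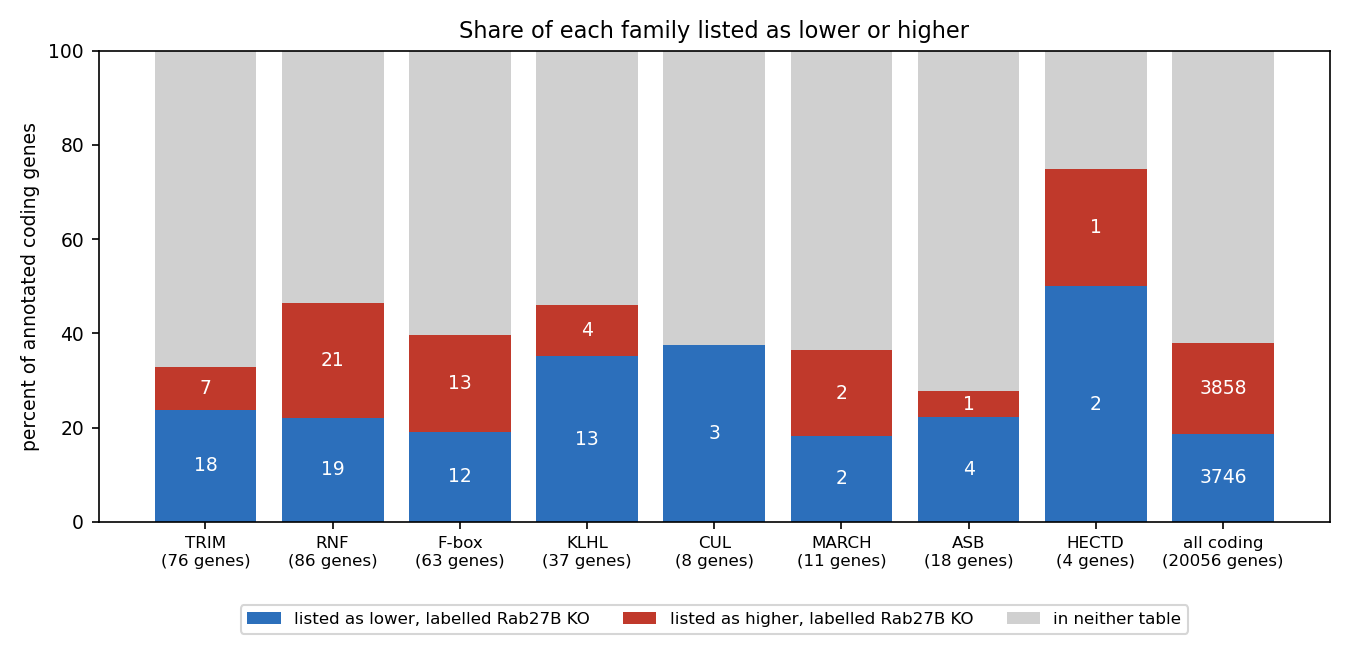
Bars give, for each family and for all protein-coding genes, the percent of annotated genes that the authors listed as lower (blue) or higher (red) in the samples labelled Rab27B KO, or that stand in neither table (grey); white numbers are gene counts. The blue part exceeds the red in the KLHL bar (13 lower, 4 higher) and the TRIM bar (18 lower, 7 higher), while both parts are close for RNF, F-box and all coding genes.

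The changes of the ligases were mostly small. The median size of the log2 fold change was 0.35 for the members and 0.41 for all listed genes. Of the 122 members 8 reached a log2 change of 1, 2 of them higher and 6 lower, a share of 6.56%, whereas 12.6% of all listed genes did. The 2 were RNF182 and RNF223, and the 6 were ASB4, TRIM2, KLHL30, KLHL24, TRIM15 and FBXO10. The signed medians of the log2 fold change were -0.32 for TRIM, -0.35 for KLHL, 0.14 for RNF and 0.15 for F-box, beside 0.12 for all listed genes. Since listed values leave a gap around 0, such a median near an even split changes sign with a few genes.

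**Figure D2:**
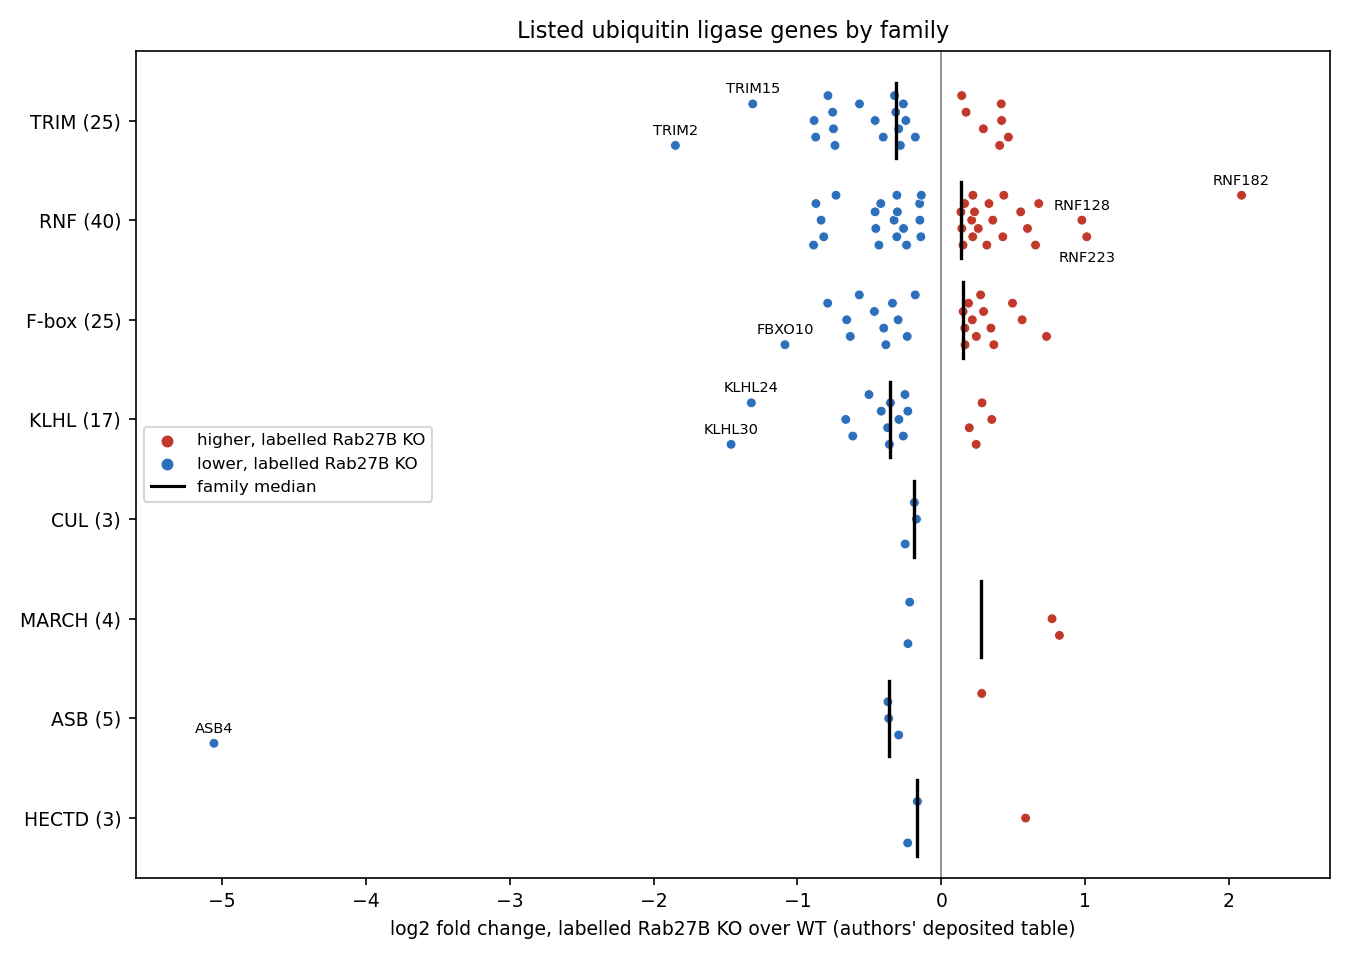
Each point is a listed member, placed by its log2 fold change (labelled Rab27B KO over WT) per the authors' deposited table, with red for higher, blue for lower and a black bar for the family median; vertical scatter within a family only separates points. Most points lie within 1 log2 unit of 0, and the named genes stand farthest out, from ASB4 at -5.06 to RNF182 at 2.09.

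The members that changed most in the RNF, TRIM and KLHL families are shown by their promoters, chosen because each holds a searched motif. Each is a RefSeq sequence of GRCh38.p14 from 250 bases before to 50 bases after the annotated start, 5′ to 3′ on the gene's strand. Capitals mark a match to 1 of 4 searched motifs. The promoters of TRIM62, FBXO2 and KLHL20, the largest rises of their families, and of FBXO10, the largest fall of the F-box genes, held no match. The RNF182 promoter (chr6:13924196-13924495, plus strand) holds a FOXO site, GTAAACA, read on the other strand. The TRIM2 promoter (chr4:153151913-153152212, plus strand) holds an interferon-stimulated response element, written as GAAA, any 2 bases and GAAA. The KLHL30 promoter (chr2:238138418-238138717, plus strand) holds the palindromic E-box CACGTG, the core of the CLEAR motif of lysosomal genes.
RNF182: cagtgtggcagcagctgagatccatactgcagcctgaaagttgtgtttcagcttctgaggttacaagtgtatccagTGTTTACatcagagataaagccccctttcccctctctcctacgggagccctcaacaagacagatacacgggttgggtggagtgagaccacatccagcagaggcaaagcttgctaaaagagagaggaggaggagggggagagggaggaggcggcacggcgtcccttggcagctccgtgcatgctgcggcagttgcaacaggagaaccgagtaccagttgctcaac
TRIM2: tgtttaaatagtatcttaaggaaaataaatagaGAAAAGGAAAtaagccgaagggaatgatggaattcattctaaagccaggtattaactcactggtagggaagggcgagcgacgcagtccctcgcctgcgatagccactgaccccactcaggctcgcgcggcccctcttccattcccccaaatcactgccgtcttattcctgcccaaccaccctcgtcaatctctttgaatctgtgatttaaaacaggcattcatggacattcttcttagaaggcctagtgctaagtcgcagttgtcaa
KLHL30: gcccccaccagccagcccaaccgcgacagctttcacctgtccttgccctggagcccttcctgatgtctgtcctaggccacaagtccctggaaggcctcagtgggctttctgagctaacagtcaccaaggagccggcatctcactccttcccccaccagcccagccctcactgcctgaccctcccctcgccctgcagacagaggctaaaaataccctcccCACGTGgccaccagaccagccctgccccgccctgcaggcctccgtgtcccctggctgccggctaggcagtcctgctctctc

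A match is a description of letters and not of binding, and none of the 4 motifs was common among the members. Promoters were matched for 97 of the 122 members, 40 higher and 57 lower, and both strands were searched. The interferon-stimulated response element stood in 1 higher member (2.5%), TRIM26, and in 5 lower members (8.77%), TRIM2, TRIM44, TRIM5, TRIM14 and KLHL5, beside 3.17% of 15843 coding promoters. The E-box CACGTG stood in 2 higher members (5.0%) and 7 lower members (12.3%), beside 8.88% of all. Among the lower were KLHL30, KLHL22 and TRIM25. The AP-1 site TGANTCA stood in 1 higher and 4 lower members, beside 5.75% of all, and the FOXO site in 1 of each, beside 2.61%. The element of TRIM5 lies in a promoter that also has an AP-1 match, as does that of TRIM44. Listed genes as a whole had the response element in 2.71% of 3135 higher and 2.82% of 3054 lower promoters. They had the E-box in 9.12% of the higher and 11.4% of the lower promoters, the AP-1 site in 5.10% and 3.80%, and the FOXO site in 2.14% and 1.90%.

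Most TRIM proteins join a RING finger to B-boxes and a coiled coil, and many act in antiviral signalling, at chromatin or on microtubules. TRIM2 had the smallest q-value of any member. TRIM2 (chromosome 4, 153152163 to 153339317), an NHL-domain ligase known for binding neurofilament light chain in neurons, was 3.60-fold lower per the authors' deposited table (log2 fold change -1.85, q = 5.62e-140). Its closest listed relative TRIM3 (chromosome 11, 6448613 to 6474459), also an NHL-domain protein, was 1.33-fold higher (q = 3.82e-04) per the authors' deposited table. The pair moved in opposite directions, and the other NHL-domain genes TRIM32 and TRIM71 were in neither table.

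Listed TRIM genes with interferon-linked or antiviral roles were mostly lower. Of 13 such genes 8 were listed (61.5%, beside 37.9% of all coding genes). Of these 1 was higher and 7 were lower, with a median log2 fold change of -0.32. The share that was lower was 87.5%, beside 72.0% of all 25 listed TRIM genes, which also have a median of -0.32. Whether this role differs from the rest of the family was not tested. The 13 genes are a list made here, and another choice of genes could give another split. TRIM15 (chromosome 6, 30163546 to 30172693) was 2.48-fold lower (q = 8.08e-14) per the authors' deposited table. TRIM38 (chromosome 6, 25962802 to 25991231), a regulator of innate immune signalling, was 1.85-fold lower (q = 2.33e-31) per the authors' deposited table. TRIM56, which acts in signalling by cytosolic DNA and RNA, stood at a log2 fold change of -0.75 (q = 9.64e-15) per the authors' deposited table. Smaller falls were listed for the retroviral restriction factor TRIM5 (-0.33), the mitochondrial signalling adaptor TRIM14 (-0.32), TRIM65 (-0.28) and TRIM25 (-0.25), as log2 fold changes per the authors' deposited table. TRIM26 was the exception, 1.13-fold higher (q = 4.70e-03) per the authors' deposited table. TRIM6, TRIM21, TRIM22, TRIM31 and TRIM34, of which TRIM21 and TRIM22 are well known to be induced by interferon, were in neither table.

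Among the TRIM genes with other roles, TRIM44, which lacks a RING finger, was 1.73-fold lower (q = 6.89e-39) per the authors' deposited table. TRIM45 was 1.83-fold lower (q = 2.42e-05) per the authors' deposited table. Both ligases anchored in the endoplasmic reticulum membrane were lower, TRIM13 by 1.67-fold (q = 6.10e-15) and TRIM59 by 1.48-fold (q = 7.13e-13) per the authors' deposited table. All 3 annotated cofactors of the TIF1 type that are members, which bind modified histones or nuclear receptors, were lower, with log2 fold changes of -0.40 for TRIM66, -0.30 for TRIM24 and -0.18 for TRIM33 per the authors' deposited table. The microtubule-binding pair TRIM36 and TRIM46 stood at 0.41 and -0.46 on the log2 scale per the authors' deposited table. TRIM27, which acts with retromer in endosome recycling, was at -0.26 (q = 4.79e-07) and TRIM10 at -0.76 (q = 0.0336) on the log2 scale per the authors' deposited table. The largest rises were those of TRIM62 (chromosome 1, 33145399 to 33182043) at 1.38-fold (q = 4.10e-07), TRIM47 (chromosome 17, 75874164 to 75878581) at 1.34-fold (q = 1.60e-18) and TRIM3 per the authors' deposited table. TRIM35 and TRIM8 were higher by 1.22-fold and 1.10-fold per the authors' deposited table. None of the 3 muscle TRIM genes, TRIM54, TRIM55 and TRIM63, was listed.

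RNF genes share only a RING domain, and their proteins sit in membranes, in the nucleus or in the cytosol. RNF182 (chromosome 6, 13924446 to 13980310), a membrane ligase reported to act on a subunit of the vacuolar proton pump, had the largest rise of all members. It was 4.25-fold higher per the authors' deposited table (log2 fold change 2.09, q = 1.44e-91) and ranked 131st among the 3898 higher genes. RNF223 (chromosome 1, 1070967 to 1074306) was 2.02-fold higher (q = 4.91e-04) per the authors' deposited table. RNF11, which works with the NF-kB inhibitor A20, was 1.51-fold higher (q = 8.44e-31) per the authors' deposited table.

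The listed RNF ligases with a protease-associated domain, a luminal part found in several ligases of endosomes and lysosomes, were all higher. Of 9 annotated genes of this kind that are members 4 were listed, with a median log2 fold change of 0.43. The listed share was 44.4%, beside 46.5% of all RNF genes and 37.9% of all coding genes. Of listed RNF genes 52.5% were higher, and of all listed genes 50.7%, and 4 genes are too few to describe this kind. RNF128 (GRAIL), known from T cell anergy, was 1.97-fold higher (q = 1.01e-08), and RNF215 was 1.47-fold higher; the endolysosomal RNF13 and RNF167 stood at log2 fold changes of 0.32 and 0.16 per the authors' deposited table. RNF152, a lysosomal ligase of the small GTPase RagA in nutrient signalling, went the other way at a log2 fold change of -0.89 (q = 0.0197) per the authors' deposited table, the largest fall of an RNF gene. It has no protease-associated domain. ZNRF3, a ligase of Wnt receptors at the cell surface, has such a domain but no RNF name, and was 1.28-fold lower (q = 1.17e-06) per the authors' deposited table. It was picked with its value in view.

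Of 9 annotated chromatin and DNA damage ligases of the RNF family 3 were listed (33.3%, beside 37.9% of all coding genes). All 3 were lower, too few to describe the role. RNF169, which binds ubiquitylated chromatin at DNA breaks, was 1.66-fold lower (q = 8.11e-16) per the authors' deposited table. RNF20 and RNF40, which together ubiquitylate histone H2B, were each lower by about the same small amount, with log2 fold changes of -0.14 and -0.15 per the authors' deposited table. RNF219, now named OBI1 and known for ubiquitylating the origin recognition complex at replication origins, was 1.83-fold lower (q = 8.34e-21) per the authors' deposited table. RNF141 was 1.76-fold lower (q = 5.12e-53), the smallest q-value among RNF genes that fell, per the authors' deposited table.

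The RING-between-RING and endoplasmic reticulum ligases went both ways. Of 8 RING-between-RING genes 4 were listed, with log2 fold changes of 0.43 for RNF19B and 0.36 for RNF14 against -0.33 for RNF216 and -0.46 for RNF144A per the authors' deposited table. Of 7 ligases of the endoplasmic reticulum membrane 3 were listed (42.9%). The sterol-linked RNF139 and RNF145 stood at 0.22 and -0.14 and the degradation ligase RNF5 at 0.14 on the log2 scale per the authors' deposited table. Among the other rises were RNF125 at 0.68 (q = 1.67e-10), RNF181 at 0.65 (q = 2.81e-15), RNF126, a partner of BAG6 in cytosolic protein quality control, at 0.43 (q = 3.23e-12) and the very large RNF213 at 0.33 on the log2 scale per the authors' deposited table. The other 6 higher genes, RNF41, RNF25, RNF187, RNF34, RNF208 and RNF123, lay between 0.14 and 0.26 on the log2 scale per the authors' deposited table. RNF44 (-0.42), RNF135 (-0.43) and RNF122 (-0.46) were lower on the log2 scale per the authors' deposited table. RNF220, RNF24, RNF146, RNF207, RNF214 and RNF6 lay between -0.15 and -0.31 on the same scale per the authors' deposited table.

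**Figure D3:**
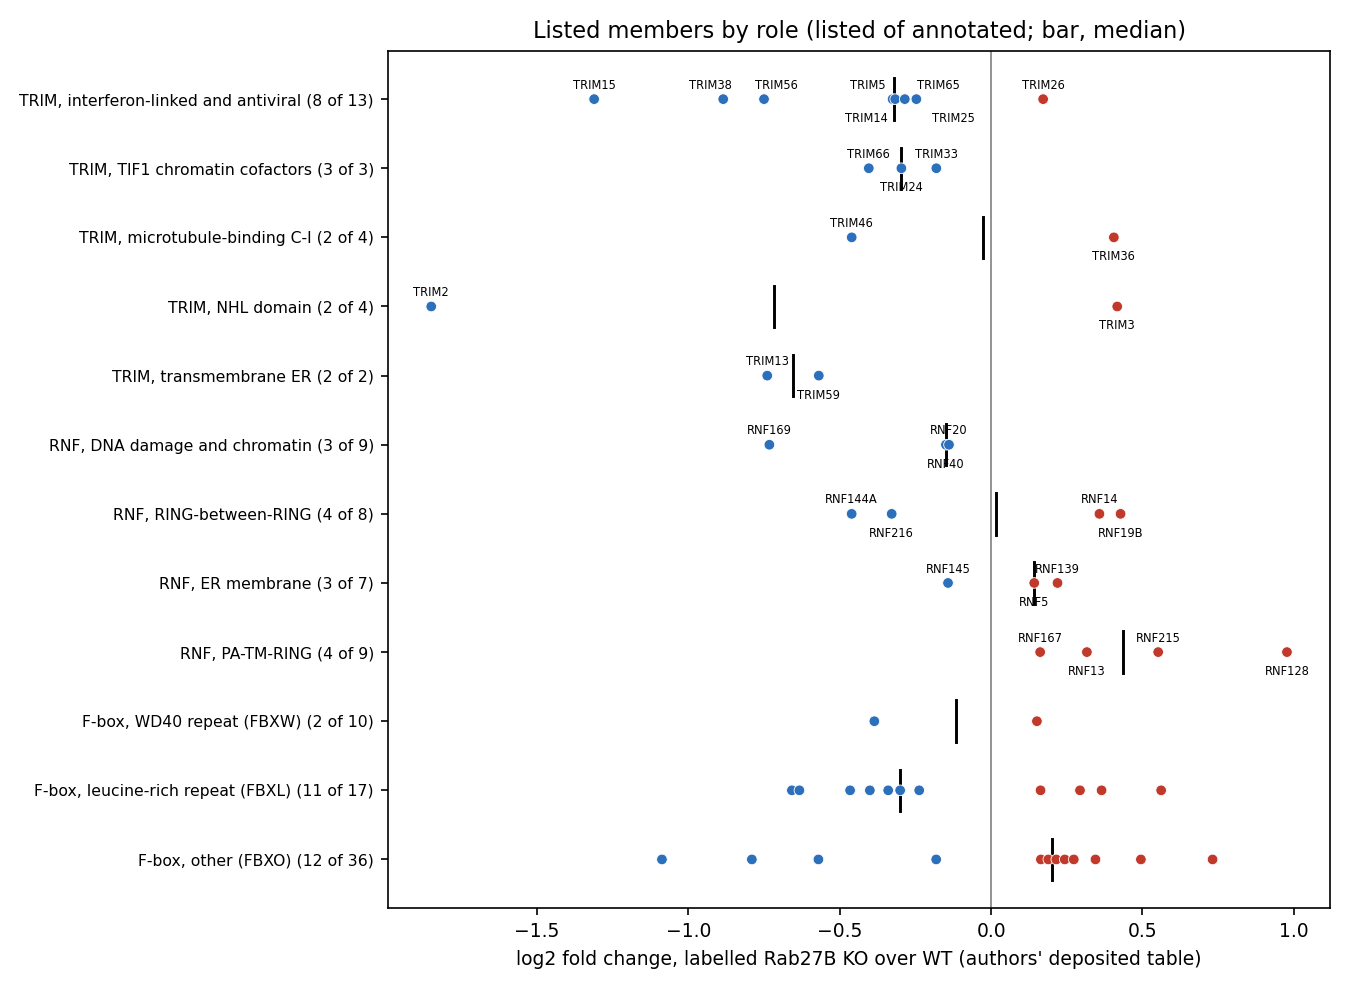
Points are listed members grouped by role, placed by log2 fold change (labelled Rab27B KO over WT) per the authors' deposited table, with red for higher, blue for lower and a black bar for the median of the listed members; row labels give listed of annotated genes. The row of interferon-linked TRIM genes has 7 points left of 0 and 1 right of it, and the PA-TM-RING row (ligases with a protease-associated domain) has all 4 right of 0. Neither lean was tested.

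F-box proteins are the substrate receptors of CUL1 ligases, and their subtypes were split differently. Of 17 FBXL genes, which carry leucine-rich repeats, 11 were listed (64.7%, beside 37.9% of all coding genes). Of these 4 were higher and 7 lower (63.6%, beside 49.3% of all listed genes), with a median log2 fold change of -0.30. Of 36 FBXO genes 12 were listed (33.3%), 8 higher and 4 lower (33.3% lower), with a median of 0.20. Among the higher, FBXO6, FBXO38, FBXO45 and FBXO31 had q-values between 0.0123 and 0.0249, while all 4 lower had q-values below 0.01. The difference between FBXL and FBXO genes was not tested. Only 2 of 10 FBXW genes, which carry WD40 repeats, were listed (20.0%). These were FBXW5 at 0.15 and FBXW4 at -0.39 on the log2 scale per the authors' deposited table. The tumour suppressor FBXW7 and the beta-catenin receptor FBXW11 were in neither table. At a q-value below 0.01, which 84.9% of all listed genes met, the F-box family had 8 higher and 11 lower genes, so its even split did not hold there.

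FBXO2 (chromosome 1, 11648387 to 11654429) had the largest rise and the smallest q-value of the F-box genes, at 1.66-fold higher (q = 1.87e-60) per the authors' deposited table. It recognises sugar chains of misfolded glycoproteins. Of the 5 F-box genes with the same sugar-binding fold 3 were listed, all higher, with FBXO27 at 1.27-fold (q = 2.44e-03) and FBXO6 at 1.21-fold (q = 0.0123) per the authors' deposited table. FBXO17 and FBXO44 were in neither table. This set was put together after the values were seen. FBXO44 overlaps FBXO2, so these 2 could share reads. The starts of FBXO2 and FBXO6 lie 15.8 kb apart, and FBXO6 overlaps no other coding gene.

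The other higher F-box genes were FBXL2 at 1.48-fold (q = 4.80e-05), FBXO16 at 1.41-fold (q = 1.33e-03), FBXL15 at 1.29-fold, FBXL6 at 1.23-fold and FBXO7, a factor of mitophagy linked to parkinsonism, at 1.18-fold per the authors' deposited table. FBXO38, FBXO45, FBXO31, known for cyclin D1 turnover, and FBXL16 were between 1.12-fold and 1.16-fold higher per the authors' deposited table. The largest fall was FBXO10 (chromosome 9, 37510892 to 37576380), a receptor of the survival protein BCL2, at 2.12-fold lower (q = 1.15e-12) per the authors' deposited table. FBXO32 (atrogin-1), best known from muscle wasting, was 1.73-fold lower (q = 1.31e-04), FBXL18 1.58-fold lower (q = 8.46e-29), FBXL20 1.55-fold lower (q = 1.60e-09) and FBXO41 1.48-fold lower (q = 1.14e-23) per the authors' deposited table. FBXL19 followed at a log2 fold change of -0.47 (q = 1.96e-19) and FBXL17, which checks the pairing of BTB proteins, at -0.40 per the authors' deposited table. FBXL14, a receptor of the transcription factor SNAI1, stood at -0.34, the mitochondrial FBXL4 at -0.30 and FBXO21 at -0.18 on the log2 scale per the authors' deposited table.

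KLHL proteins link substrates to CUL3, and most of the listed genes were lower. KLHL24 (chromosome 3, 183635623 to 183684519), which controls turnover of the basal keratin KRT14, was 2.50-fold lower (q = 8.44e-31) per the authors' deposited table. KLHL30 had the larger fold, 2.75-fold lower, with a weaker q-value of 9.43e-04 per the authors' deposited table. KLHL22, which acts on a regulator of mTORC1, was 1.58-fold lower (q = 5.82e-08) and KLHL42, which acts on the microtubule-severing protein katanin, 1.53-fold lower (q = 9.29e-20) per the authors' deposited table. KLHL23 and KLHL36 followed at log2 fold changes of -0.50 (q = 3.65e-12) and -0.42 (q = 7.89e-15) per the authors' deposited table. KLHL12, which ubiquitylates the COPII coat protein SEC31, stood at -0.29 (q = 7.47e-05) on the log2 scale per the authors' deposited table.

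The adaptors that direct CUL3 to Aurora B in mitosis moved in both directions. KLHL9 and its close relative KLHL13 stood at log2 fold changes of -0.37 (q = 9.73e-07) and -0.35 (q = 0.0490), while KLHL21 stood at 0.19 (q = 8.94e-04) per the authors' deposited table. KLHL9 and KLHL13 are similar in sequence, so reads could be split between them. The other 3 higher genes were KLHL20, a CUL3 adaptor for DAPK1 and for the autophagy kinase ULK1, at 1.28-fold, KLHL29 at 1.22-fold and KLHL18 at 1.18-fold per the authors' deposited table. KLHL11, KLHL17, KLHL5 and KLHL7 were lower, between -0.36 and -0.23 on the log2 scale per the authors' deposited table.

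The listed cullins changed little. Of 8 cullin genes 3 were listed, all lower, with CUL4A at a log2 fold change of -0.25 (q = 8.30e-06), CUL7 at -0.19 (q = 1.42e-03) and CUL1, the scaffold of F-box ligases, at -0.17 (q = 1.41e-03) per the authors' deposited table. CUL3 and CUL5, the scaffolds for the KLHL and ASB receptors, were in neither table.

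MARCH proteins are membrane ligases of surface receptors and of the endoplasmic reticulum, now named MARCHF. MARCH3 and MARCH2, close relatives of endosomes, were 1.77-fold (q = 7.88e-03) and 1.70-fold higher (q = 4.78e-27) per the authors' deposited table. MARCH6, which degrades proteins at the endoplasmic reticulum, and MARCH9 stood at log2 fold changes of -0.23 (q = 4.72e-05) and -0.22 (q = 0.0281) per the authors' deposited table.

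ASB proteins are SOCS-box receptors of CUL5. ASB4 (chromosome 7, 95470656 to 95551317) had the largest change of all 122 members, at 33.3-fold lower with a log2 fold change of -5.06 but q = 2.01e-03 per the authors' deposited table. That q-value ranks 5668th of 7681, and the sources used here do not give how the authors handled genes with almost no reads in 1 group. ASB1 and ASB3 were each 1.29-fold lower (q = 1.39e-06 and q = 0.0473), ASB7 1.23-fold lower (q = 3.52e-03) and ASB6 1.22-fold higher (q = 1.85e-05) per the authors' deposited table. Of the HECTD genes, HECTD3 stood at 0.59 (q = 1.36e-23), whereas HECTD4 stood at -0.23 (q = 1.75e-03) on the log2 scale per the authors' deposited table.

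Cullin partners and ligases of other families were taken from 6 lists. Of 176 such genes 94 were listed (53.4%), 41 higher and 53 lower, beside 40.3% of the members and 37.9% of all coding genes, and these differences were not tested. Core subunits and adaptors of cullin ligases had 30 of 49 listed (61.2%), with a median log2 fold change of -0.25. Of these 8 were higher and 22 lower, or 73.3% lower beside 49.3% of all listed genes. The list's smallest q-values per the authors' deposited table belonged to FEM1C at 2.16-fold higher (q = 6.70e-57), IVNS1ABP at 1.41-fold lower, DCAF6, higher at 0.58 on the log2 scale, and ENC1 at 1.39-fold lower. KEAP1, the CUL3 adaptor of NRF2, was 1.26-fold lower per the authors' deposited table. The shared subunits went both ways. SKP1, ELOB and ELOC were 1.09-fold, 1.23-fold and 1.26-fold higher, while DDB1 was 1.20-fold lower (q = 5.83e-15) per the authors' deposited table. KEAP1 and these subunits were picked with their values in view.

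The enzymes that switch cullins on and off were listed about as often as all coding genes. For NEDD8 conjugation and the COP9 signalosome 9 of 24 genes were listed (37.5%, beside 37.9% of all coding genes). Of these 6 were higher and 3 lower, or 66.7% higher beside 50.7% of all listed genes. UBE2M, the NEDD8-conjugating enzyme, had the smallest q-value, at 1.29-fold higher (q = 3.37e-14) per the authors' deposited table. The 3 lower genes, named with their values in view, were CAND1, DCUN1D4 and COPS7B. SOCS-box receptors outside the ASB family had 9 of 19 listed, 5 higher and 4 lower. SPSB2, SPSB1, RAB40C and the cytokine inhibitor SOCS1 were 1.89-fold, 1.48-fold, 1.46-fold and 1.73-fold higher per the authors' deposited table. HECT ligases outside HECTD had 14 of 23 listed, 6 higher and 8 lower. HERC5, the interferon-induced ligase for ISG15, was 2.38-fold higher (q = 1.38e-43), and HERC2 and SMURF2 were 1.44-fold and 1.33-fold lower per the authors' deposited table. The list of other RING and U-box ligases had 26 of 54 listed, 13 higher and 13 lower, with DTX4 2.41-fold lower, BIRC3 4.06-fold higher and BRCA1 1.61-fold lower per the authors' deposited table. RING-between-RING ligases and subunits of the linear ubiquitin ligase outside RNF had 6 of 7 listed, 3 higher and 3 lower. The unlisted gene, CUL9, is also counted among the cullins. SHARPIN and RBCK1, subunits of the linear ubiquitin ligase, were 1.36-fold and 1.26-fold higher, and ANKIB1 and ARIH1 1.58-fold and 1.12-fold lower per the authors' deposited table. The catalytic subunit of that complex, RNF31, was in neither table.

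Chromosome and transcript length moved with the direction of these genes. On chromosomes 4, 7, 13 and 15, where 77.1% of all 1103 listed genes were lower, all 15 listed members were lower. Of chromosomes 1 to 22 and X, these 4 had the largest shares of lower genes in these same data. A lean of members there is therefore no independent result. Chromosome 21 followed, with 63.8% of its listed genes lower. Among the 15 members were TRIM2, TRIM13, TRIM24, TRIM56, RNF6, RNF216, RNF219, FBXL18, KLHL5, KLHL7, CUL1, CUL4A, ASB4 and ASB7. On the other chromosomes 58 of 107 listed members were lower (54.2%), beside 44.6% of all 6578 listed genes there. The KLHL family had 4 higher and 11 lower genes there and the TRIM family 7 higher and 14 lower. The RNF family had 21 higher and 16 lower genes, and the F-box family 13 higher and 10 lower. Of the cullins only CUL7 remains once these chromosomes are left out.

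**Figure D4:**
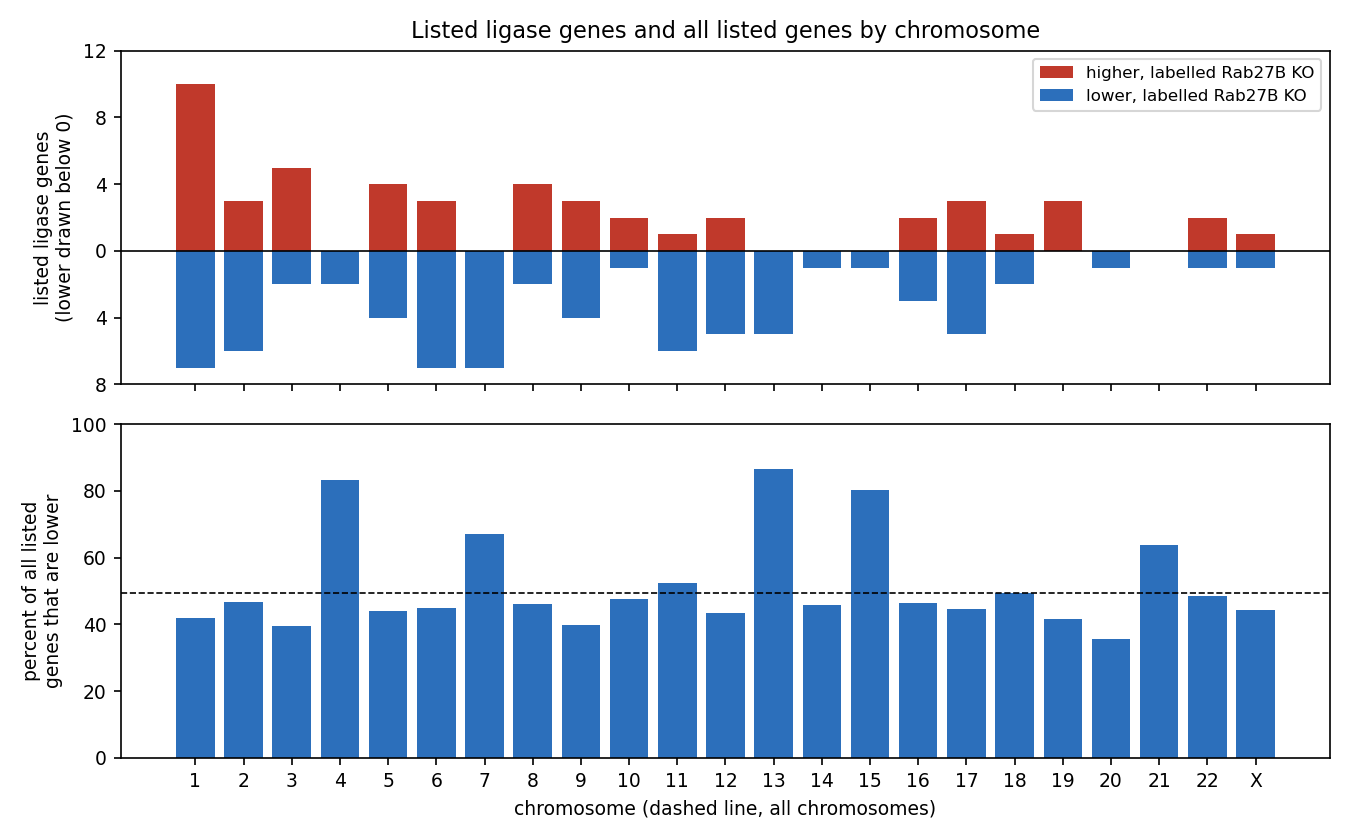
The upper panel counts listed ligase genes per chromosome, higher above 0 (red) and lower below 0 (blue) in the samples labelled Rab27B KO, and the lower panel gives the percent of all listed genes that were lower, with a dashed line at 49.3% for all chromosomes together. Chromosomes 4, 7, 13 and 15 have no red bar in the upper panel and stand above the dashed line in the lower one, while 14 and 20, with 1 lower gene each and no red bar, stand below that line.

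The longest coding transcript had a median length of 3044 bases in the 49 higher members and 4454 bases in the 73 lower members. All listed genes showed the same order, with medians of 2809 and 4287 bases. The order held in TRIM (3478 and 5175 bases), RNF (2637 and 3940 bases) and F-box genes (2330 and 4882 bases), for higher and lower genes. In KLHL genes it was turned, with 4954 bases in the 4 higher and 3726 bases in the 13 lower genes. The part of chromosome and length in the split of the families was not tested.

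Neighbouring members did not share a direction as a rule. Among members that start within 1 Mb of each other there were 17 pairs, 8 with the same direction and 9 with opposite ones. TRIM47 and TRIM65, whose starts lie 5.37 kb apart on chromosome 17, stood at log2 fold changes of 0.42 and -0.28 per the authors' deposited table. TRIM10, TRIM15 and TRIM26 lie side by side in the MHC region of chromosome 6, at -0.76, -1.31 and 0.17 on the log2 scale per the authors' deposited table. TRIM10 and TRIM15 overlap by their coordinates, and the sources used here do not give whether the counting used strand, so their reads may not be told apart. In all, 29 of the 122 members overlap another coding gene, among them TRIM5, which overlaps TRIM6 and TRIM34, and 2, ASB3 and KLHL23, lie in annotated readthrough genes.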

How the data were processed

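RNA was sequenced from 6 HCT116 cultures, 3 labelled Rab27B KO and 3 WT, grouped by their titles. The submitters' processing notes name HISAT, Bowtie2 and GRCh38. The sources used here do not give the counting, the scaling or the test. Per the file headers, the deposited tables hold the authors' log2 fold change of Rab27B KO over WT, the linear ratio (fold) of the same comparison for the higher genes, and a q-value. Folds of lower genes were computed here from the log2 values. Depth per sample is unknown.

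The members and the lists were chosen with earlier results of these data known. No test was added to the authors' q-values at 0.05, because no value per sample was in the tables. Every member could be named, in full those with the 3 largest rises, 3 largest falls and 3 smallest q-values of a family. Of other ligase genes, up to 4 per list with the smallest q-value were named. The member count was checked on a simulated table. Gene IDs were matched to RefSeq (GRCh38.p14) for 7656 of 7681 genes and all 122 members, 6 of them under another current symbol. Of these, 2 no longer carry a family name and were added to their family's total. The totals include readthrough genes. A few genes that are in the counts are not reported here by name. Transcript lengths are from GENCODE release 29. Python 3.11.15, pandas 2.3.3 and matplotlib 3.10.9 were used.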

Additional observations from a re-analysis of the deposited data

How the results depend on the processing

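The counts over all members were compared under 5 alternatives. At a log2 change of at least 1, 8 members were left, 2 higher and 6 lower, with a median log2 fold change of -1.32. At a q-value below 0.01 there were 40 higher and 59 lower members, by current RefSeq symbols 49 and 71, without chromosomes 4, 7, 13 and 15 49 and 58, and for coding genes only 49 and 73. Within families, a q-value below 0.01 left 18 higher and 12 lower RNF genes, and turned the F-box median to -0.30, with 8 higher and 11 lower genes. The TRIM family had more lower than higher genes under each of the 5 alternatives, as did the KLHL family. Current RefSeq symbols and coding genes only left the same counts, 25 TRIM and 17 KLHL genes, so those alternatives could not change the split. A log2 change of at least 1 left only 2 genes in each of these families. No paired analysis was possible because the tables hold no values per sample, and for the same reason no replicate could be left out, no other scaling or low-count filter tried, and no count-based test run. Depth limits cannot be stated, since the reads behind each gene are unknown.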

Other observations

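Of 4 ligases picked from those that act on the RNA sensors RIG-I and MDA5, 3 were lower and 1 was higher. Both sensor genes were higher. The sensor genes RIGI and IFIH1 (MDA5) were 1.65-fold (q = 4.20e-17) and 1.67-fold higher (q = 4.93e-11) in labelled Rab27B KO samples by the authors' deposited table. TRIM25 and RNF135 (Riplet), known to activate RIG-I, were 1.19-fold (q = 3.36e-09) and 1.35-fold lower (q = 6.68e-03), and TRIM65, known to activate MDA5, was 1.22-fold lower (q = 8.47e-06) per the authors' deposited table. RNF125, known to mark both sensors for degradation, was higher by 0.68 on the log2 scale (q = 1.67e-10) per the authors' deposited table. These 4 ligases were put together after their values were seen, and the set leaves out other members reported to act on these sensors. RNF122, reported like RNF125 to mark RIG-I for degradation, was lower at -0.46 (q = 4.85e-03) on the log2 scale per the authors' deposited table. TRIM38 (-0.88) and TRIM13 (-0.74) were also lower and RNF123 (0.14) was higher on that scale per the authors' deposited table. No common direction of such ligases was tested.

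The 8 members with a log2 change of at least 1 had listed neighbours, starting within 1 Mb, that leaned the same way for 5 and the opposite way for 3. All 5 neighbours of TRIM2 and all 5 of ASB4 were lower, as were 8 of the 10 of KLHL30, and these 3 members were lower. All 4 neighbours of RNF182 and 22 of the 33 of RNF223 were higher, and so were both members. FBXO10, KLHL24 and TRIM15 were lower, whereas all 5, 14 of 19 and 13 of 20 of their neighbours were higher. The part of the neighbourhood in these changes was not tested.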
